A study of Mus musculus with 31 samples.

Results

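Nnt, Ide, Entpd4 and Wdfy1, genes reported to carry variants private to the C57BL/6J strain of mice, were followed in whole brain over 31 BXD/TyJ strains. The 4 genes were found by their symbols in the platform annotation, each with 1 probe, among 15096 named genes and 21262 features tested (genes, or spots without a single symbol). The BXD lines were bred by crossing C57BL/6J and DBA/2J mice and inbreeding their descendants, so a line is homozygous at nearly every locus for an allele of 1 of these parents. RNA from whole brains of 3 males aged 8 weeks was pooled for each strain and labelled with Alexa Fluor 647. It was hybridised on a 2-colour glass array against whole-brain RNA of C57BL/6J males of the same age, labelled with Alexa Fluor 555, with 1 array per strain and no dye swap. Pooling hides the spread between animals of a strain. Of the strains, 7 had numbers from 33 to 42 and 24 had numbers from 1 to 32. The higher numbers belong to lines bred in a later round of crosses, for which C57BL/6J parents of a later date were used.

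The 4 genes act in unrelated processes. Nnt encodes the nicotinamide nucleotide transhydrogenase of the inner mitochondrial membrane, which uses the proton gradient to make NADPH for the removal of peroxides, and C57BL/6J lacks several of its exons. Ide encodes the insulin-degrading enzyme, a zinc metallopeptidase that cleaves insulin and amyloid beta, and lies near Fgfbp3 in a region whose copy number varies among C57BL/6J mice. Entpd4 encodes a nucleoside diphosphatase of the Golgi and lysosomes that hydrolyses the UDP left by glycosylation, and the C57BL/6J reference assembly holds a second copy, Entpd4b, 5 genes away on the same chromosome. Wdfy1 encodes a protein with WD repeats and a FYVE domain, which binds phosphatidylinositol 3-phosphate on early endosomes and also acts as an adaptor in signalling from Toll-like receptors. C57BL/6J is both a parent of every strain and the source of the RNA in the second channel of every array. A strain with the C57BL/6J allele shares it with the reference RNA, whereas a strain with the DBA/2J allele, or from a cross made before the variant arose, does not.

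Each value below is the log2 ratio of strain over C57BL/6J for 1 probe on 1 array. Neither the direction nor the base is stated: the direction follows the labels, which name the strain in the first channel, and base 2 is what limma writes. All signs would turn if the ratio ran the other way. A ratio holds no level, so neither the abundance of the 4 transcripts nor the presence of brain markers could be read from these data. Arrays were not all alike: 7 (BXD36 and BXD38 of the later strains, with BXD6, BXD8, BXD20, BXD23 and BXD28) stood apart on the first principal component, with 29.1% of the variance, and 8 (BXD33, BXD34, BXD39, BXD40 and BXD42 of the later strains, with BXD15, BXD22 and BXD27) on the second, with 12.1%, while 16 formed the largest group. The labels give no batch, and all 7 of the later strains lay in the groups that stood apart, 2 in the first and 5 in the second. Every pair of arrays correlated positively, with r from 0.285 to 0.906. With 1 array per strain, strain and array cannot be told apart, and p-values reflect only how these 31 arrays spread. A test of the mean against 0 leaves out the spread of the C57BL/6J RNA, and a fixed effect of dye or spot cannot be told apart from a difference. Print blocks were taken as runs of 480 probe numbers, and the probes lay in blocks 14 (Nnt and Entpd4), 21 (Ide) and 37 (Wdfy1). None lay at the eighth place of a run of 8 spots, where named probes had a mean of −0.51 against −0.01 to 0.08 at the other places.

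The first comparison asked whether each gene differed between the BXD strains and C57BL/6J. Ide had a positive mean and Entpd4 and Wdfy1 had negative means that differed from 0, whereas Nnt did not pass the test. Thus 3 of the 4 genes were called by limma at an adjusted p of 0.05, but 76.1% of all features were called in the same test, 42.1% with positive and 33.9% with negative means. The share among the 4 genes was therefore close to that of the whole array.

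Nnt ranged from −0.46 in BXD23 to 0.33 in BXD6 with a median of −0.03, and 12 strains lay above 0 and 19 below. Its mean was −0.03 ± 0.03 (SE, n = 31; limma adjusted p = 0.319), with a 95% interval from −0.09 to 0.03. On the linear scale this interval runs from 0.939 to 1.02 times the C57BL/6J value. The strains therefore lay on both sides of the reference with little spread: the SD of 0.147 exceeded that of only 4.25% of features. Where the Nnt probe lies within the transcript was not analysed here, so it may lie outside the exons missing from C57BL/6J, and its value does not check the deletion.

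Ide was above 0 in 30 of 31 strains, with the lowest value, −0.01, in BXD18, a median of 0.36 and the highest, 1.37, in BXD6. The mean of 0.42 ± 0.05 (SE, n = 31; limma adjusted p = 1.56e-08) corresponded to 1.34 times the C57BL/6J value, with an interval from 1.24 to 1.45. It was the only one of the 4 genes to pass against a change of 1.2-fold (limma's treat, adjusted p = 0.0105), a test that 27.9% of all features passed. Of all features, 10.7% had a higher mean.

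Entpd4 showed the opposite sign with similar regularity. It was below 0 in 30 of 31 strains, from −1.02 in BXD32 through a median of −0.28 to 0.16 in BXD36. The mean was −0.30 ± 0.04 (SE, n = 31; limma adjusted p = 3.47e-08), or 0.813 times the C57BL/6J value, and it did not pass against a change of 1.2-fold (adjusted p = 0.494). Entpd4b was not among the named genes of the array, and transcripts of the 2 copies may hybridise to the same probe, so the value may hold both.

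Wdfy1 was below 0 in 25 strains and above 0 in 6. It ranged from −0.50 in BXD5 to 1.07 in BXD6 with a median of −0.19. The mean of −0.13 ± 0.05 (SE, n = 31; limma adjusted p = 0.0293) lay nearer to 0 than the median because of the upper tail, and without BXD6 it was −0.17 ± 0.04 (SE, n = 30; limma adjusted p = 0.000274), a setting in which 76.2% of features were called. On the linear scale the interval over 31 strains runs from 0.847 to 0.986 times the C57BL/6J value, and the gene did not pass against a change of 1.2-fold.

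**Figure D1:**
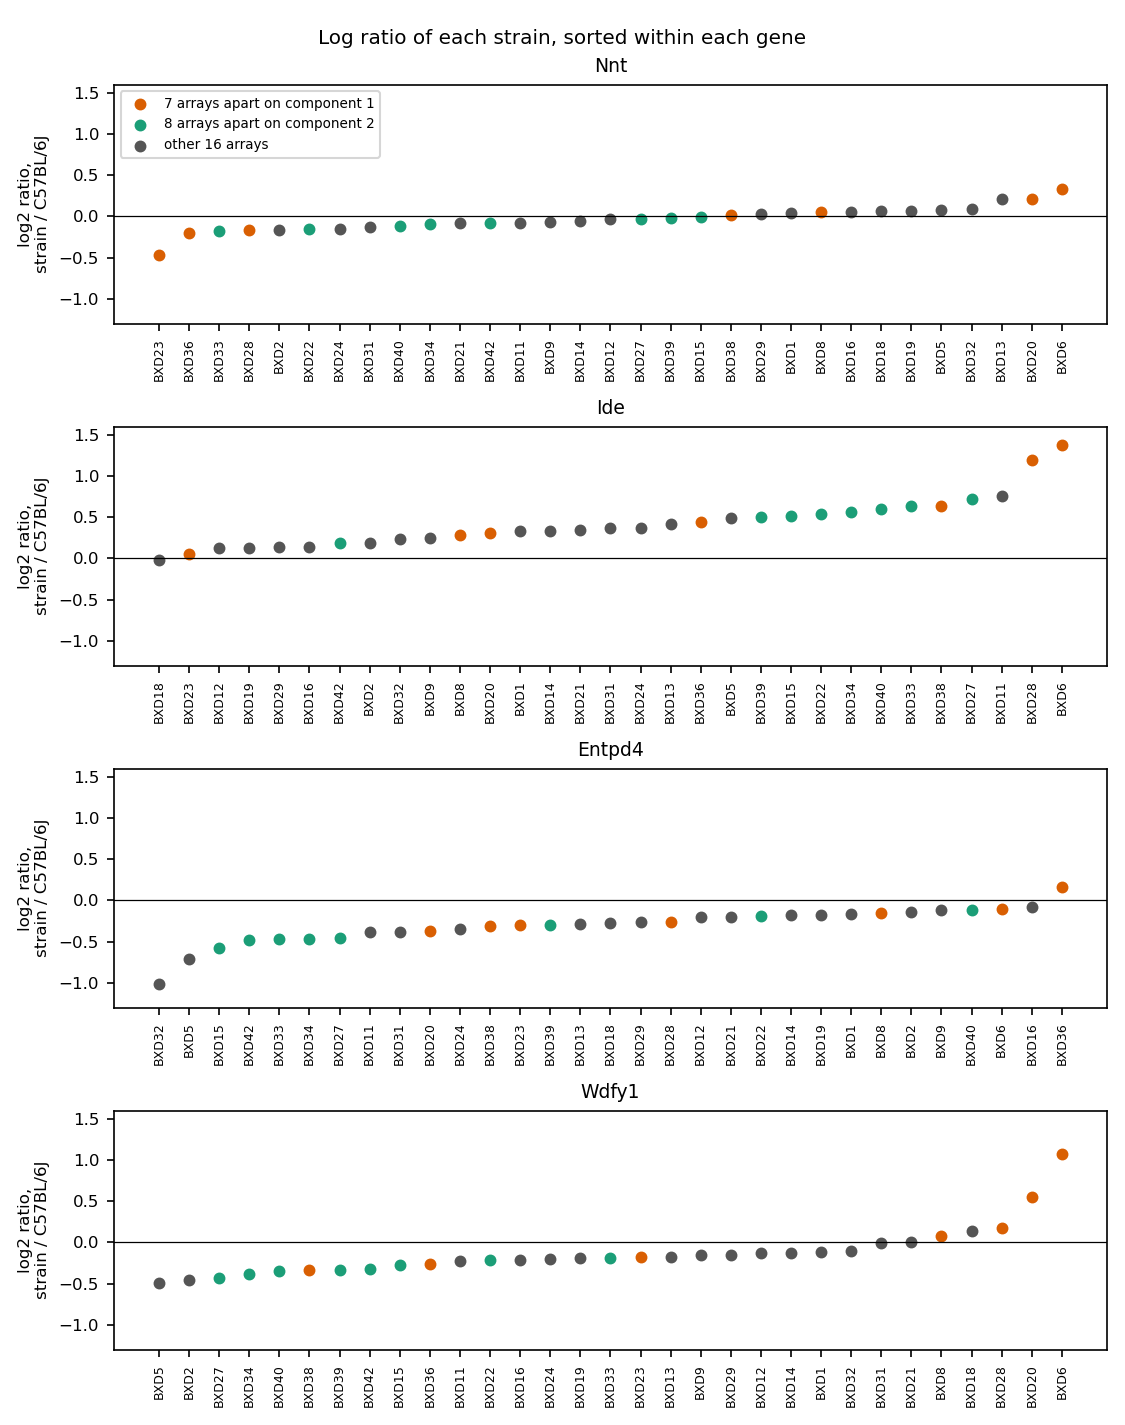
Log2 ratio of strain over C57BL/6J (vertical axis) for each of 31 strains (horizontal axis, sorted within each gene), 1 panel per gene, with colours for the 3 groups of arrays. Ide lies above 0 in 30 strains and Entpd4 below 0 in 30, Nnt straddles 0, and single strains such as BXD6 at 1.37 for Ide and 1.07 for Wdfy1 stand off from a continuous run of the others.

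The means were also read within each group of arrays. Of all features, 47.9% were called by limma in the 7 arrays apart on the first component, 74.8% in the 8 apart on the second and 76.1% in the other 16. Ide averaged 0.61 ± 0.49 in the 7 arrays apart on the first component, 0.53 ± 0.16 in the 8 apart on the second and 0.29 ± 0.18 (SD) in the other 16, and passed limma's test in all 3. Entpd4 averaged −0.19 ± 0.18, −0.38 ± 0.16 and −0.31 ± 0.24 (SD) in the same order of groups, and passed in the 8 and in the 16 but not in the 7 (limma adjusted p = 0.0567). Its sign was thus the same in every group. Wdfy1 averaged 0.16 ± 0.50 in the 7 arrays, with values from −0.34 to 1.07, against −0.31 ± 0.08 in the 8 and −0.16 ± 0.16 (SD) in the 16, so the negative mean came from the last 2 groups. Nnt averaged −0.03 ± 0.27, −0.08 ± 0.06 and −0.01 ± 0.10 (SD). In the 8 arrays it was below 0 on every array, at −0.18 to −0.004, and passed (limma adjusted p = 0.0299).

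The second comparison set the later strains against the earlier ones, since a variant that arose in C57BL/6J between the 2 rounds of crosses could segregate only among the later strains. None of the 4 genes differed between the strain sets at an adjusted p of 0.05 by limma, and none at an unadjusted p under 0.05, against 0.48% of all features called and 20.2% at the unadjusted threshold. In exact permutation tests over the 2629575 divisions of the strains into 7 and 24, p ran from 0.0632 for Wdfy1 to 0.819 for Entpd4.

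Wdfy1 came nearest. In strains 33 to 42 it ran from −0.39 to −0.19 with a median of −0.33 and was below 0 in all 7, against −0.50 to 1.07 with a median of −0.15 in strains 1 to 32, of which 18 lay below 0. The later strains thus lay in a narrow band inside the range of the earlier ones, and the ranges overlapped throughout. The difference of means was −0.23 (95% interval −0.49 to 0.02; limma adjusted p = 0.282, exact permutation p = 0.0632). Without BXD6 it was −0.18 (limma adjusted p = 0.215), with 1.06% of features called and Wdfy1 past an unadjusted p of 0.05. With the array group as a block it was −0.28 (limma adjusted p = 0.670), with 0% of all features called and 7.29% at an unadjusted p under 0.05, Wdfy1 among them. Within the 8 arrays apart on the second component, the difference between 5 later and 3 earlier strains was −0.01 (limma adjusted p = 0.983). Within the 7 apart on the first component, the difference between 2 later and 5 earlier strains was −0.64 (limma adjusted p = 0.902). In both groups 0% of features were called, and 5.59% and 5.17% had an unadjusted p under 0.05.

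For the other 3 genes the means of the strain sets lay closer together than for Wdfy1, although the medians for Ide did not. Nnt ran from −0.20 to 0.02 with a median of −0.09 in strains 33 to 42, against −0.46 to 0.33 with a median of −0.02 in strains 1 to 32 (difference −0.08, 95% interval −0.22 to 0.06; limma adjusted p = 0.520). Ide ran from 0.18 to 0.64 with a median of 0.56 in strains 33 to 42, against −0.01 to 1.37 with a median of 0.33 in strains 1 to 32 (difference 0.11, interval −0.15 to 0.37; limma adjusted p = 0.654). With the array group as a block the Ide difference turned to −0.10 (limma adjusted p = 0.957). Entpd4 ran from −0.48 to 0.16 with a median of −0.31 in strains 33 to 42, against −1.02 to −0.07 with a median of −0.26 in strains 1 to 32 (difference 0.02, interval −0.17 to 0.22; limma adjusted p = 0.920). These intervals leave room for later strains at 0.859 times the earlier ones for Nnt and 1.29 times for Ide.

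**Figure D2:**
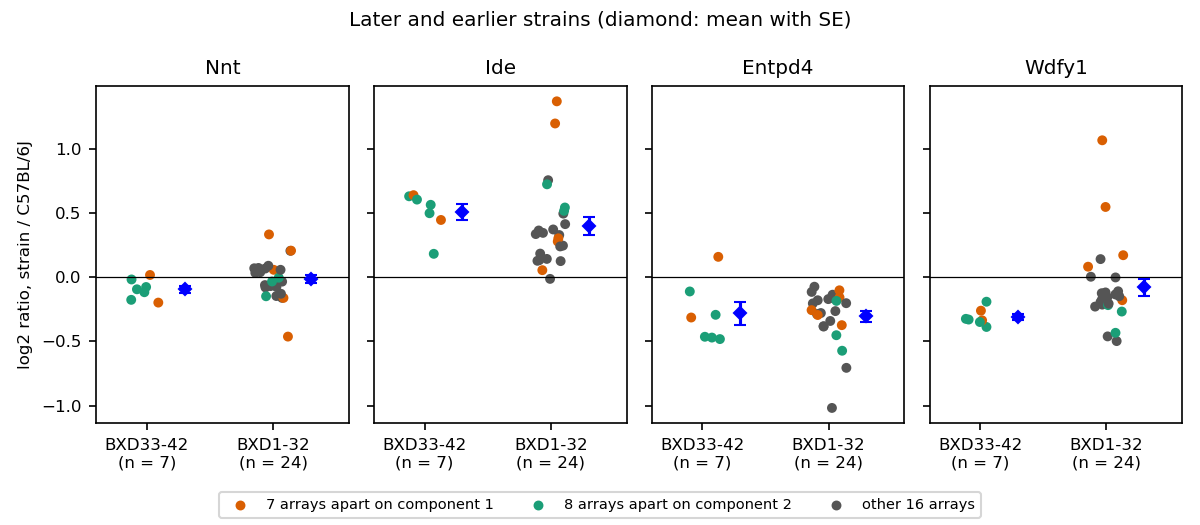
Log2 ratio of strain over C57BL/6J (vertical axis) for strains 33 to 42 (left, n = 7) and strains 1 to 32 (right, n = 24) in 1 panel per gene, with points coloured by group of arrays and a diamond with bars for the mean and SE. The later strains of Wdfy1 lie between −0.39 and −0.19 and inside the range of the earlier ones, and none of the 4 differences passed the test.

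The shape of each distribution was examined because a locus with 2 alleles of large effect would divide the strains into 2 parts. For each gene the sorted strains were divided at every place with at least 5 strains on each side, and the largest share of variance lying between the parts was taken. The share was 0.569 for Nnt, 0.581 for Ide, 0.569 for Entpd4 and 0.605 for Wdfy1. All 4 lay below the median of 0.663 over all features and below the 95th percentile of 0.796, which 5% of features pass by construction. At the best division the parts were separated by a gap of 0.02 for Nnt (17 strains below and 14 above), 0.05 for Ide (19 and 12), 0.07 for Entpd4 (7 and 24) and 0.08 for Wdfy1 (26 and 5). By this measure no gene showed 2 separated groups of at least 5 strains each. A part of fewer than 5 strains, as a variant confined to some of the 7 later strains could give, cannot be found this way. With at least 3 strains on each side the shares were 0.569, 0.581, 0.569 and 0.627 in the same order of genes. All were again below the median over features, 0.664.

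The largest gaps lay instead between 1 or 2 strains and the rest. For Ide the largest gap, 0.44, lay above BXD11 at 0.76, with BXD28 and BXD6 beyond it. For Wdfy1 it was 0.52, between BXD6 at 1.07 and BXD20 at 0.55. For Entpd4 it was 0.31, between BXD5 at −0.71 and BXD32 at −1.02, and for Nnt 0.27, between BXD36 at −0.20 and BXD23 at −0.46. The next largest gaps were 0.38 for Wdfy1, 0.23 for Entpd4, 0.17 for Ide and 0.13 for Nnt. They lay within 2 strains of the upper end, whereas the largest gaps for Entpd4 and Nnt lay at the lower end.

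The divisions followed the groups of arrays in part. The upper 12 strains for Ide held 7 of the 8 arrays apart on the second component, 3 of the 7 apart on the first and 2 of the other 16. The upper 5 for Wdfy1 held 4 arrays of the first group, 1 of the 16 and no later strain. For Entpd4 the upper 24 held all 7 arrays of the first group, 3 of the second and 14 of the 16. With the group means removed, the shares were 0.560 for Nnt, 0.544 for Ide, 0.556 for Entpd4 and 0.464 for Wdfy1, again all below the median over features, 0.606.

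A comparison of 1 with 2 normal distributions of equal variance by the Bayesian information criterion favoured 2 for Wdfy1 (gain 13.0) and Ide (gain 4.35) and 1 for Entpd4 (−0.06) and Nnt (−6.87), where 30.9% of all features favoured 2. A gain at least as large was reached by 4.1% of features for Wdfy1 and by 15.9% for Ide. The upper component held only BXD6 and BXD20 for Wdfy1 and only BXD6 and BXD28 for Ide. Without BXD6 the gain fell to 0.25 for Wdfy1 and to −2.06 for Ide.

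**Figure D3:**
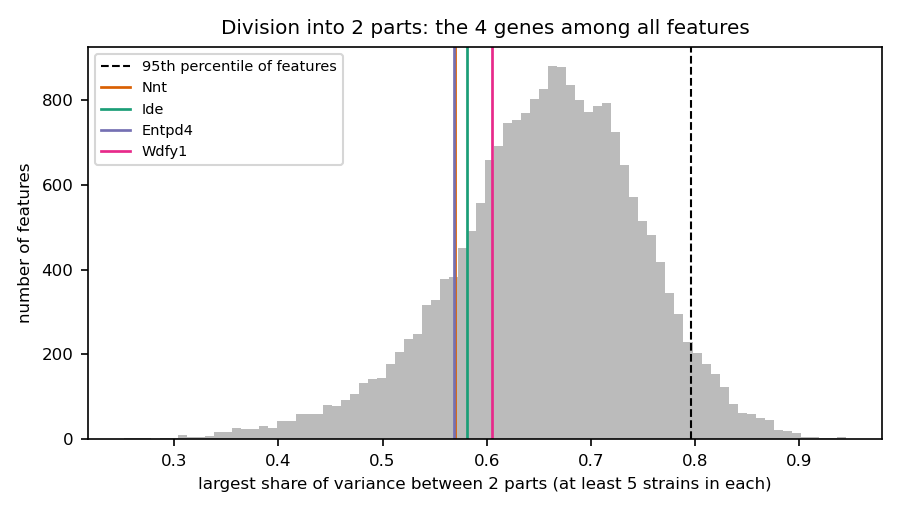
Number of features (vertical axis) by the largest share of variance between 2 parts of the strains (horizontal axis, no unit), with coloured lines for the 4 genes and a dashed line for the 95th percentile. All 4 genes, at 0.569 to 0.605, lie to the left of the median of 0.663.

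BXD6 had the highest value of the 31 strains for Nnt, Ide and Wdfy1, whereas 5.69% of all features had their highest value on that array and an even share would be 3.23%. Measured from the median over strains, Wdfy1 was higher by 1.26 on BXD6, a distance reached by 1.10% of features on that array, and Ide by 1.01, reached by 2.22%. For Nnt the distance was 0.37, reached by 18.9%. Entpd4 on BXD6, at −0.10, lay within the range of the other strains.

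The same array was high for hormone genes of the pituitary, a gland that can stay attached to a dissected brain. Of 5 pituitary genes measured, 4 were highest on BXD6. The growth hormone gene Gh had 3.37 on BXD6, against a median of −0.09 and a maximum of 2.46, in BXD20, over the other 30 strains. The prolactin gene Prl had 2.58 on BXD6, against at most 1.53 elsewhere, the gonadotropin alpha-subunit gene Cga 2.42 against at most 0.90, and the proopiomelanocortin gene Pomc 2.19 against at most 0.33. Fshb, encoding the beta subunit of follicle-stimulating hormone, had −1.77 on BXD6, within the range of the other strains, −1.92 to 0.36, on a probe at the eighth place. The mean of the 5 genes was 1.76 on BXD6 and −0.47 to 0.76 on the other arrays. Of 7 other marker lists, BXD6 ranked 29 of 31 for the mean of the neuronal genes, at −0.36, and of the astrocyte genes, at −0.54. It ranked 25 for endothelium, 14 for blood, 10 for microglia, 9 for choroid plexus and 4 for oligodendrocytes, at 0.65.

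Over 31 strains the pituitary mean correlated with Wdfy1 at r = 0.624 and rho = 0.250 (permutation p = 0.00757 and 0.174; adjusted over 4 genes, 0.0183 and 0.232) and with Nnt at r = 0.510 and rho = 0.389 (permutation p = 0.00914 and 0.0310; adjusted, 0.0183 and 0.124). It correlated with Ide at r = 0.361 and rho = −0.208 (permutation p = 0.0546 and 0.262) and with Entpd4 at r = 0.174 and rho = 0.252 (permutation p = 0.308 and 0.171). The pituitary genes were set beside the 4 genes after the data were seen, the values on BXD6 included. The p-values that include BXD6 are therefore a description and no independent test. Pearson's r depended on BXD6, and rho less so. Without it r was 0.133 for Wdfy1, 0.268 for Nnt, −0.170 for Ide and 0.0669 for Entpd4, with rho of 0.172, 0.326, −0.333 and 0.179 in the same order, and none passed (adjusted permutation p from 0.161 to 0.716). The values of r without BXD1 and BXD6, the arrays farthest on the pituitary mean, were 0.130, 0.246, −0.175 and −0.00666. Within the 16 arrays of the largest group r was −0.107 for Wdfy1 and −0.0267 for Nnt. Within the 8 apart on the second component it was −0.675 for Wdfy1 and 0.806 for Nnt (exact permutation p = 0.0646 and 0.0133; adjusted, 0.129 and 0.0534), with rho = 0.857 for Nnt (exact permutation p = 0.0107; adjusted, 0.0429), and within the 7 apart on the first 0.825 and 0.641 (exact permutation p = 0.0333 and 0.124; adjusted, 0.133 and 0.222). The part of pituitary RNA, or of the other marker lists, in the values of the 4 genes on BXD6 was not tested.

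Pairwise correlations between the 4 genes asked whether they varied together over the strains. Of the 6 pairs, none passed at an adjusted p of 0.05 over the 6 with all 31 arrays. Nnt and Wdfy1 came nearest, with r = 0.502 and rho = 0.277 (permutation p = 0.00851 and 0.131; adjusted, 0.0511 and 0.440). Of the 113937060 pairs of named genes, 10.8% had an r at least as large in size. Ide and Wdfy1 had r = 0.356 and rho = −0.248 (permutation p = 0.0559 and 0.177; adjusted, 0.168 and 0.440), so that the measures differed in sign. The other 4 pairs had r from −0.12 to 0.18, sizes reached by 58.0% or more of all gene pairs.

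BXD6 carried much of what correlation there was. Without it the mean r over the 6 pairs was −0.0406, against 0.181 with it, and 2 of the 6 pairs were positive, against 5 of 6. Nnt and Wdfy1 then had r = 0.271 (permutation p = 0.144; adjusted, 0.629) and Ide and Wdfy1 had r = −0.116 and rho = −0.377 (permutation p = 0.531 and 0.0412; adjusted, 0.629 and 0.247). Without BXD6 and BXD28, the arrays farthest on Ide, Ide and Wdfy1 had r = −0.391 and rho = −0.516 (permutation p = 0.0329 and 0.00498; adjusted, 0.120 and 0.0299), so Pearson's r turned its sign on leaving out BXD6 alone, whereas rho was negative with all arrays. Without BXD6 and BXD23, the arrays farthest on Nnt, Nnt and Wdfy1 had r = 0.332 (permutation p = 0.0782; adjusted, 0.133).

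Within the groups of arrays, 1 of the 6 pairs held one sign: Nnt and Entpd4 had r = −0.0661 in the 7 arrays apart on the first component, −0.370 in the 8 apart on the second and −0.260 in the other 16, and none of these passed (permutation p = 0.883 and 0.363, both exact, and 0.339). Nnt and Wdfy1 had r = 0.751 in the 7 arrays apart on the first component (exact permutation p = 0.0498; adjusted, 0.299), −0.529 in the 8 apart on the second (exact permutation p = 0.180) and 0.0747 in the other 16 (permutation p = 0.782). Ide and Wdfy1 had 0.568, −0.121 and −0.323 in the same order of groups (permutation p = 0.165 and 0.789, both exact, and 0.221). With group means removed from all 31 arrays, Nnt and Wdfy1 passed (r = 0.557, permutation p = 0.00302, adjusted p = 0.0181; rho = 0.234, p = 0.206), a setting that keeps BXD6.

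**Figure D4:**
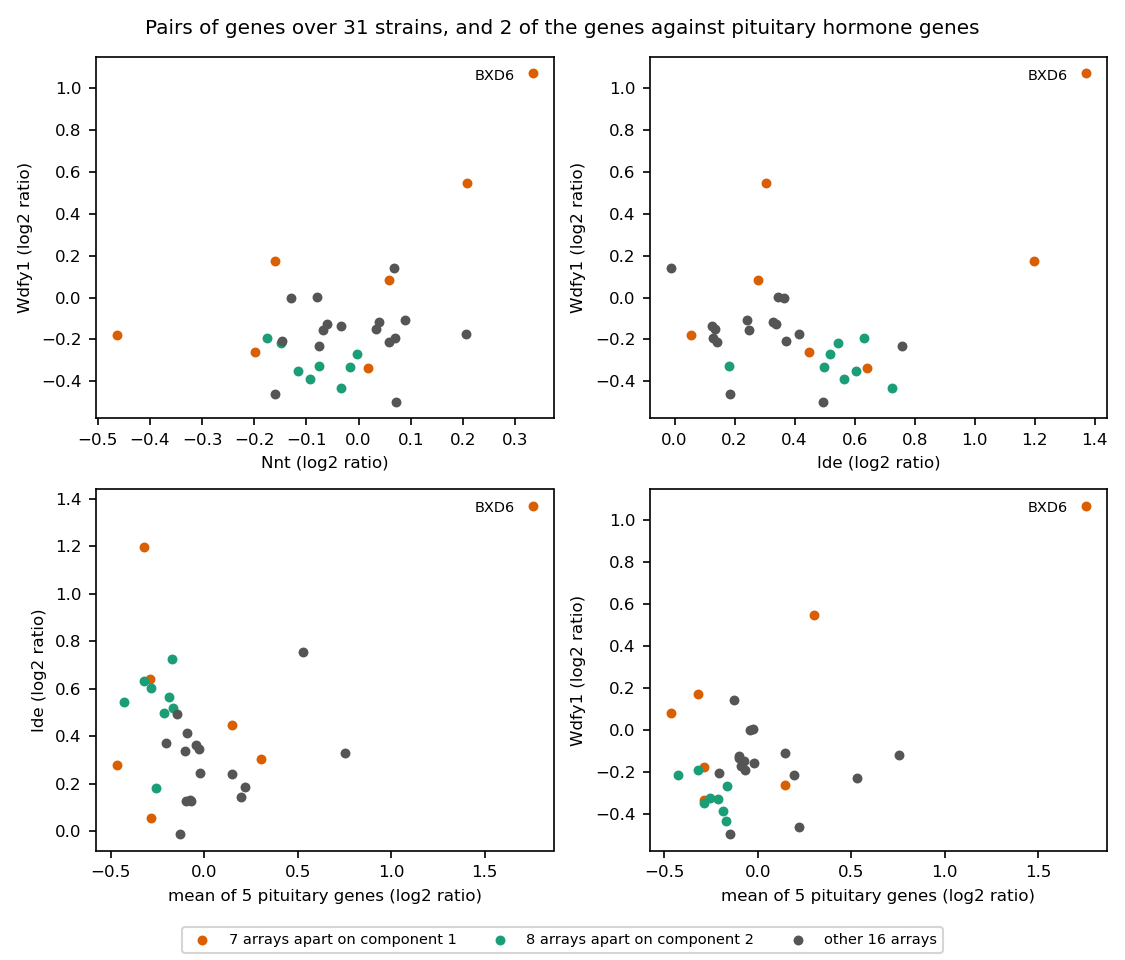
Scatter plots of log2 ratios over 31 strains, with 1 point per strain coloured by group of arrays: Wdfy1 against Nnt, Wdfy1 against Ide, Ide against the mean of 5 pituitary genes and Wdfy1 against that mean. BXD6 lies at the upper right of every panel, and without it r fell to 0.271 for Nnt and Wdfy1, against 0.502 with it.

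The genes whose pattern over the 31 strains was most like each of the 4 were then listed, with Pearson's r and no test, since each was picked as the highest among the 15096 named genes. The highest r that a named gene reached with any other had a median of 0.807 over all named genes. Nnt reached 0.678, with E130304I02Rik, followed by Gas8 at 0.658 and the lysosomal acid lipase gene Lipa at 0.651, and 93.3% of named genes reached a value at least as high. Ide reached 0.730 with Klhl13, 0.723 with the ribosome biogenesis gene Rrs1 and 0.720 with Zcchc13. Wdfy1 reached 0.781 with the cell polarity gene Pard6g, 0.773 with Mir124-2hg and 0.772 with Vmn1r15, and all 3 were highest on BXD6. These 3 genes thus had no partner closer than is usual on this array.

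Entpd4 was different in this respect. It followed Slc2a1, which encodes the glucose transporter of the blood-brain barrier, with r = 0.916 and rho = 0.834, and Sbds, a ribosome maturation gene, with r = 0.857 and rho = 0.731. A highest r of this size was reached by 5.24% of named genes. Slc2a1 was lowest in BXD32, at −1.90, and highest in BXD36, at 0.12, the same strains as for Entpd4, and Sbds was lowest and highest in those strains too, at −1.44 and 0.28. Without these 2 arrays the r was 0.827 with Slc2a1 and 0.679 with Sbds. Within the groups of arrays it was 0.784 in the 7 apart on the first component, 0.795 in the 8 apart on the second and 0.966 in the other 16 for Slc2a1, and 0.876, 0.807 and 0.942 for Sbds. The likeness was therefore present in each group. By probe number the 3 probes fell in blocks 14 for Entpd4, 15 for Slc2a1 and 7 for Sbds, those of Entpd4 and Slc2a1 being consecutive. The part of a shared spot effect in this likeness was not tested. Tsix, the antisense transcript of Xist, came next at r = 0.833.

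**Figure D5:**
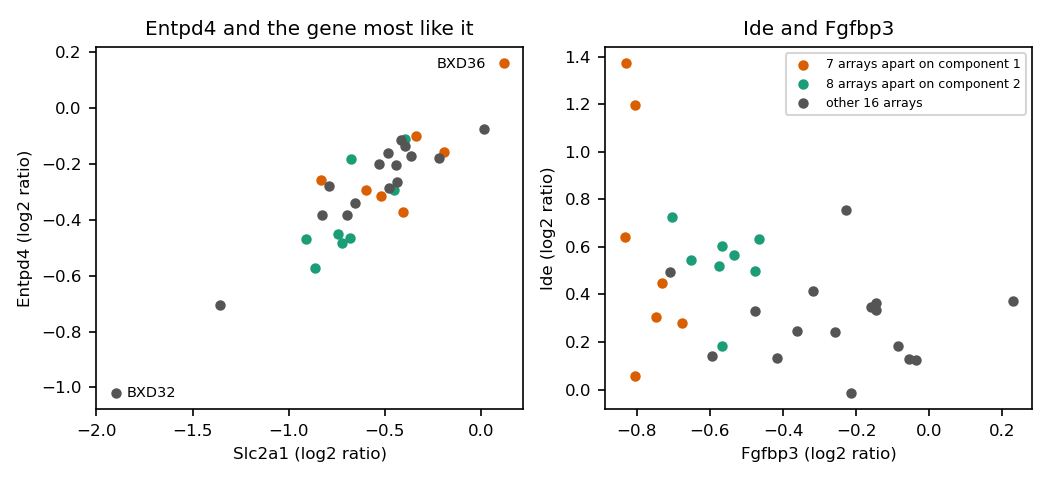
Log2 ratios over 31 strains with 1 point per strain, coloured by group of arrays: Entpd4 against Slc2a1 on the left and Ide against Fgfbp3 on the right. Entpd4 and Slc2a1 lie along 1 line, with BXD32 at the lower and BXD36 at the upper end and r = 0.916. Ide and Fgfbp3 have r = −0.446 over all arrays. Mean Fgfbp3 is −0.78 in the 7 arrays apart on the first component, −0.57 in the 8 apart on the second and −0.25 in the other 16. The ranges of the groups overlap for both genes.

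Fgfbp3, a secreted carrier of fibroblast growth factors, lies 8 genes from Ide on chromosome 19 in the RefSeq annotation of GRCm38.p6. Fgfbp3 was below 0 in 30 of 31 strains and averaged −0.45 ± 0.05 (SE, n = 31; limma adjusted p = 1.00e-09), the opposite sign to Ide, but its probe lay at the eighth place, where named probes averaged −0.51. Over strains the genes correlated at r = −0.446 and rho = −0.423 (permutation p = 0.0112 and 0.0191, 1 relation tested). Within the groups of arrays r was −0.539, −0.217 and −0.0909 in the 7, the 8 and the 16 (permutation p = 0.215 and 0.602, both exact, and 0.735). Without BXD6 it was −0.380 (permutation p = 0.0365), and without BXD6 and BXD28, the 2 arrays farthest on Ide, −0.296 (permutation p = 0.120). With array group means removed from all 31 arrays r was −0.126 (permutation p = 0.495). The sign was thus negative in each of these settings. The relation passed with all arrays and without BXD6, but not without both arrays, with group means removed or within a group.

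Of the 10 genes nearest to each of the 4 in the RefSeq order, 5 around Nnt were measured, 4 around Ide, 2 around Wdfy1 and none around Entpd4. All 4 measured near Ide had positive means that passed, as Ide did, in a test where 42.1% of all features were called with positive means. The mitotic kinesin gene Kif11 had a mean of 0.53 ± 0.08 and r = −0.472 with Ide, and the ubiquitin ligase gene Marchf5 had 0.10 ± 0.02 (SE, n = 31) and r = −0.431. The noncoding 4931408D14Rik had 0.69 ± 0.09 and r = 0.0799, and the homeobox gene Hhex 0.15 ± 0.02 (SE, n = 31) and r = 0.268, so the 4 correlations with Ide did not share a sign. Next to Wdfy1, Mrpl44, encoding a mitochondrial ribosomal protein, had a mean of 0.41 ± 0.04 (SE) and was above 0 on all 31 arrays, and its r with Wdfy1 was 0.120. Next to Nnt, Paip1, a regulator of translation, had a mean of −0.07 ± 0.06 (SE), which did not pass, and r = 0.334 with Nnt, or 0.0517 without BXD6. The nearest gene to the other side that was measured, the growth factor gene Fgf10, had −0.24 ± 0.04 (SE) and r = −0.205.

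Genes that work beside each of the 4 were described by counts of limma calls over all features, to be read against the 76.1% called on the whole array. Of 17 measured genes of mitochondrial NADPH supply and peroxide removal, the process of Nnt, 4 had positive and 7 negative means and 6 did not pass. The smallest adjusted p were those of Nadk2, the mitochondrial NAD kinase, with a mean of −0.82 ± 0.05, of Me3, a mitochondrial malic enzyme that makes NADPH, with −0.53 ± 0.04 on a probe at the eighth place, and of Glrx2, a mitochondrial glutaredoxin, with −0.57 ± 0.05 (SE, n = 31). The median of the list was −0.0005, against 0.04 over all features.

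Of 22 measured peptidases, substrates and receptors around Ide, 5 had positive and 11 negative means. Ctsd, the lysosomal protease cathepsin D, had a mean of −1.26 ± 0.08, the matrix metalloproteinase gene Mmp9 −0.82 ± 0.06 at the eighth place and the insulin-like growth factor gene Igf1 −0.68 ± 0.09 (SE, n = 31). The list had a median of −0.09, against 0.04 over all features, while Ide itself was positive. Of the 22 genes, 4 had a probe at the eighth place, where named probes averaged −0.51. Of 12 measured nucleotidases around Entpd4, 5 were positive and 3 negative. Entpd5, the related diphosphatase of the endoplasmic reticulum, was above 0 on all 31 arrays with a mean of 0.60 ± 0.06 (SE), against −0.30 for Entpd4. Enpp3 had −0.27 ± 0.04 and Enpp5 0.28 ± 0.05 (SE).

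Of 20 measured genes around Wdfy1, of endosomes and Toll-like receptors, 7 were positive and 10 negative. The FYVE-domain gene Zfyve21 had a mean of −1.17 ± 0.06 and Eea1, which encodes a tether of early endosomes, −0.79 ± 0.07, both on probes at the eighth place, where 6 of the 20 genes had a probe. Plekhf2, another FYVE-domain gene, had 0.75 ± 0.05 (SE, n = 31) and was above 0 on all 31 arrays. In none of the 4 lists did a gene differ between strains 33 to 42 and strains 1 to 32 (limma, 0 calls in each list at an adjusted p of 0.05), where 0.48% of all features were called, so that lists of this size would hold few or no calls at that share.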

How the data were processed

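The authors deposited 1 table of log ratios, taken as log2, for 23040 spots on 31 arrays. The submitters' processing notes list limma and R 2.0.0, with no role. How background, dyes and spots were treated is not stated there. After sorting, the columns were identical, so the deposited log2 values had been quantile normalised, which removes any shift of a whole array. Intensities were not used here, so dim or saturated probes could not be marked. The number of arrays limits the precision.

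Symbols came from the platform annotation: 16874 probes had 1, 134 several and 6032 none; 16196 matched RefSeq (GRCm38.p6) by Entrez identifier. Probes of a gene were averaged. Array groups were divided at the largest gap in component scores.

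Models were fitted over all 21262 features with limma 3.58.1 in R 4.3.3 (two-sided; Benjamini-Hochberg adjustment at 0.05), with 2 normal components by mclust 6.1.1. Correlations used 100000 permutations, or all orders below 10 arrays (two-sided). Simulated data had independent features, no groups of arrays and 100 features changed at each size. On these the test of the mean recovered 78% of changes of 0.3 and the test of strain sets 16%. For changes of 0.6 the shares were 98% and 65%. The deposited arrays fell into groups and far more features were called against 0, so these shares do not give the power of the tests here.

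The genes, lists and tests were chosen with earlier results of these data known. The genes named were the 4 genes, the 3 most like each, RefSeq neighbours within 5 places, Gabra2, Fgfbp3 and, in each list, the 3 genes of smallest adjusted p. The alternatives left out BXD6 or groups of arrays, blocked on groups, centred arrays or print blocks of 480 spots, and changed the tests. Pituitary values of single arrays, and their correlations with the 4 genes, were set beside the genes after the data were seen.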

Additional observations from a re-analysis of the deposited data

Results flagged for a closer look

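Among strains 33 to 42, Ide in BXD42, at 0.18, lay apart from the other 6 strains, which had 0.45 to 0.64. The gap to the nearest strain was 0.577 of the range, above the critical value of 0.568 of Dixon's test for 7 samples. Such a gap is found by chance in about 1 in 20 groups, and 4 genes were examined.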

How the results depend on the processing

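The number of features that differed from 0 was 16176, against 10190 in the 7 arrays apart on the first component and 5938 against a change of 1.2-fold. Nnt passed only in the 8 arrays apart on the second component (−0.083, adjusted p = 0.0299). Entpd4 did not pass in the 7 arrays (−0.19, adjusted p = 0.0567) or against 1.2-fold (−0.30), and Wdfy1 turned to 0.16 in the 7 arrays and did not pass against 1.2-fold (−0.13). Features that differed between strains 33 to 42 and strains 1 to 32 numbered 102, against 0 with the array group as a block and within either group that held both strain sets, and 226 without BXD6. The difference for Ide turned to −0.10 under each of these 3 settings with groups (−0.0985, −0.0984 and −0.0987). No other mean or difference of the 4 genes changed its sign or its side of the threshold, and sign-flip and exact permutation tests kept every side. Of the 6 pairs, 1 passed with group means removed (Nnt and Wdfy1, 0.557) and none under the other settings by Pearson's r. Signs turned for Nnt and Ide without BXD6 (−0.146), in the 8 arrays (−0.128), in the 16 (−0.168), without the 2 farthest arrays (−0.382) and by rho (−0.169), and for Nnt and Wdfy1 in the 8 arrays (−0.529). Ide and Entpd4, at 0.00305, turned without BXD6 (−0.118), in the 16 arrays (−0.280), with group means removed (−0.0509), with print blocks centred (−0.0245, chosen after seeing the data), without the 2 farthest arrays (−0.180) and by rho (−0.166). Ide and Wdfy1 turned without BXD6 (−0.116), in the 8 (−0.121), in the 16 (−0.323), without the 2 farthest arrays (−0.391) and by rho (−0.248), and Entpd4 and Wdfy1 in the 7 (−0.0818). In none of the settings did a gene pass the 95th percentile for a division into 2 parts, and 2 genes favoured 2 normal components. The cause of these changes was not tested. No paired analysis was possible because each strain has 1 array and the strain sets share no number.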

Other observations

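Gabra2 is a GABA-A receptor subunit gene with a private variant of C57BL/6J that lowers its expression. Lower expression in C57BL/6J would raise the ratio of strain over C57BL/6J where a strain carries the other allele. The mean of the 2 Gabra2 probes was nevertheless below 0 in 29 of 31 strains. The cause was not tested, and the direction of the ratio is taken from the labels. As the mean of its 2 probes, Gabra2 followed the first principal component more closely than any of the 4 genes. One probe, with a mean of −1.37, lay at the eighth place of a run of spots, and the other, with −0.10, did not. The difference of strains 33 to 42 from strains 1 to 32 was 0.21 on the former and −0.19 on the latter. No correlation with the component was computed for either probe alone. Its mean over the 2 probes was −0.21 ± 0.31 in the 7 arrays apart on the first component, −0.76 ± 0.13 in the 8 apart on the second and −0.95 ± 0.18 (SD) in the other 16. It correlated with the score on the first component at r = 0.828, against 0.440 for Ide, 0.373 for Wdfy1, 0.124 for Entpd4 and −0.0104 for Nnt, values given as a description because the component was computed from the same arrays. With the second component Gabra2 had r = −0.155, smaller in size than Wdfy1 at −0.438, Entpd4 at −0.298, Nnt at −0.206 and Ide at 0.199. Fgfbp3, with its probe at the eighth place too, had r = −0.813 with the first component.

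Single arrays contributed unequally to extreme values. BXD36 held the highest or lowest value of the 31 strains for 16.1% of features, BXD32 for 12.7% and BXD8 for 12.6%, against 2.46% for BXD13. The highest Entpd4 value lay on BXD36 and the lowest on BXD32.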
